A study of Homo sapiens with 7 samples.

Results

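The collagen gene family was examined in 5 RNA-seq libraries of MDA-MB-231, an established human breast cancer line that lacks estrogen and progesterone receptors and has mesenchymal features. Members were all rows of the deposited gene table whose symbol consists of COL, a number, A and a number. The rule found 44 genes among 57773 rows. The rule itself used no measured value, but members and classes were chosen with earlier results of these data known. All 44 identifiers carried the same symbol in the name table used here. The tested libraries are 2 labelled KD (replicates 1 and 2), set against 3 labelled parent (replicates 1, 2 and 3), all of the same line. The study concerns APE1, a DNA repair endonuclease that also acts on transcription factors, and its contact with G-quadruplexes, folded structures of guanine-rich DNA. The labels do not spell out KD, and they do not say whether the KD cells are 1 clone or whether the libraries of a group stem from different cultures. The p-values therefore reflect the spread among these 5 libraries, which may be technical. A protocol shared by all labels describes cells without APE1 that were given inducible APE1 back, and the labels do not say which libraries it applies to.

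Collagens are proteins of 3 chains wound into a helix, and the family is usually divided by the structure it builds. Fibrillar collagens form the ropes of connective tissue, type IV collagens form the sheet of the basement membrane beneath epithelia and around vessels, and FACITs (fibril-associated collagens with interrupted triple helices) sit on the surface of fibrils. The remaining types form beaded filaments, hexagonal networks, anchoring fibrils or multiplexins, or span the cell membrane. In breast tumours, collagen is made by stromal cells and by the tumour cells themselves, and dense fibrillar collagen is a known feature of invasive disease.

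The gene the study targets was checked first. APEX1, which encodes APE1, had 43.3 and 48.3 CPM (counts scaled to a common library size, with TMM factors) in KD replicates 1 and 2, against 124, 132 and 135 CPM in parent replicates 1, 2 and 3. Libraries held 14677006 and 15502425 counts in KD and 14601078 to 18049386 counts in parent. Of markers for stromal cells that could bring in collagen transcripts, DCN, FAP, POSTN and TCF21 were at 0 in all 5 libraries, and LUM, PDGFRA and THY1 had at most 7 counts in a library. The 10 fibroblast and mural markers summed to between 74.4 and 84.8 CPM in KD, against 42.9 to 60.6 CPM in parent, and 3 of the 10 had enough counts to be tested. Among those 3 PDGFRB, the receptor for platelet-derived growth factor, was 1.72-fold higher in KD (edgeR adjusted p = 0.0122). The part of any other cell type in the collagen values was not tested. The leukocyte marker PTPRC, the endothelial marker VWF and the estrogen receptor gene ESR1 were at 0 in all 5 libraries. Other markers from those lists had counts. The leukocyte marker CD68 had 130 and 128 CPM in KD, against 96.3, 96.2 and 118 CPM in parent (edgeR adjusted p = 0.0612). The endothelial marker CDH5 had at most 8 counts in a library. Of genes listed as low in this line, ERBB2 averaged 161 CPM in KD and 133 CPM in parent (adjusted p = 0.0426). CDH1 averaged 7.70 and 3.51 CPM (0.00587), and EPCAM 9.71 and 12.3 CPM (0.121). In bulk RNA, fewer cells of a kind and less RNA per cell cannot be told apart.

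The 6 type IV genes lie in 3 pairs, head to head, each pair read outward from the stretch between its starts. The RefSeq promoter table (build GRCh38.p14, not the hg19 build named for the deposited files) places the starts of COL4A1 and COL4A2 127 bases apart. The bases between those starts, chr13:110307158-110307283 on the plus strand, are shown because these 2 genes rose together in KD. Capitals mark CCAAT and GGGCGG, the letters of the CCAAT box and of the GC box bound by Sp1-type factors, each searched on both strands.
COL4A1_COL4A2: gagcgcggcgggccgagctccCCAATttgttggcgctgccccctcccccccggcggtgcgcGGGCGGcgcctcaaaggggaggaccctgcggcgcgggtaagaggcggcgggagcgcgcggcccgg

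The next 3 sequences are the 250 bases before the RefSeq start of a collagen gene that rose (COL7A1) and of 2 that fell (COL6A3 and COL13A1). They are chr3:48595330-48595579 on the minus strand, chr2:237414165-237414414 on the minus strand and chr10:69801656-69801905 on the plus strand of GRCh38.p14. Capitals mark matches to the G-quadruplex motif, the structure the study is about, taken as 4 runs of at least 3 G with 1 to 7 bases between runs and searched on both strands. In COL7A1 the marked stretches overlap letters of GGGCGG.
COL7A1: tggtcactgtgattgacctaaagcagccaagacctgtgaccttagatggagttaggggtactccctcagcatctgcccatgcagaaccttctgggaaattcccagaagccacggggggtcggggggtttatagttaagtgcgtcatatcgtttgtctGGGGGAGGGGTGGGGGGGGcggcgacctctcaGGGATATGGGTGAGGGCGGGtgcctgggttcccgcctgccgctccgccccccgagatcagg
COL6A3: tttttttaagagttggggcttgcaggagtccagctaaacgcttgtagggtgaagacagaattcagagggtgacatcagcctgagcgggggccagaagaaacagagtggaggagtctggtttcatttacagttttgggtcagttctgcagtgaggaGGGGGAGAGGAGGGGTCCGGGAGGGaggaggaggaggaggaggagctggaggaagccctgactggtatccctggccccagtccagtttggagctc
COL13A1: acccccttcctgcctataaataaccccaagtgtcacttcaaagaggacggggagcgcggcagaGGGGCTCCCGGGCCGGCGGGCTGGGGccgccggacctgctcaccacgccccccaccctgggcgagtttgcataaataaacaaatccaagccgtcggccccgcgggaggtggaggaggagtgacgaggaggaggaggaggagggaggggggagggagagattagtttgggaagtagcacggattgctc

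Collagens moved in both directions in KD, with COL4A1, COL4A2, COL7A1 and COL12A1 among those higher and COL6A3, COL8A1 and COL13A1 lower. Of the 44 genes, 14 were at 0 in all 5 libraries and 6 more did not pass the count filter. Of the 24 tested, 8 rose and 5 fell by edgeR's quasi-likelihood test at an adjusted p under 0.05, fitted over all 16198 genes that passed the count filter. That is 54.2% of the tested collagens, where 21.5% of all tested genes passed (9.15% higher and 12.4% lower). Among tested genes with at least 5 CPM in 1 group, 9 of 17 collagens passed, against 24.9% of all such genes. The median log2 fold change, KD over parent, was 0.11 for the 24 collagens and near 0 (0.001) for all tested genes, and the median size of change regardless of sign was 0.55 for the collagens and 0.19 for all tested genes. The folds ran from 1.37 to 2.51 among genes that rose and from 1.46 to 4.38 among genes that fell. The largest fall is that of COL4A4, which passed the count filter through the parent libraries alone, which fixed its direction. The next was 2.45-fold, in COL6A3.

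**Figure D1:**
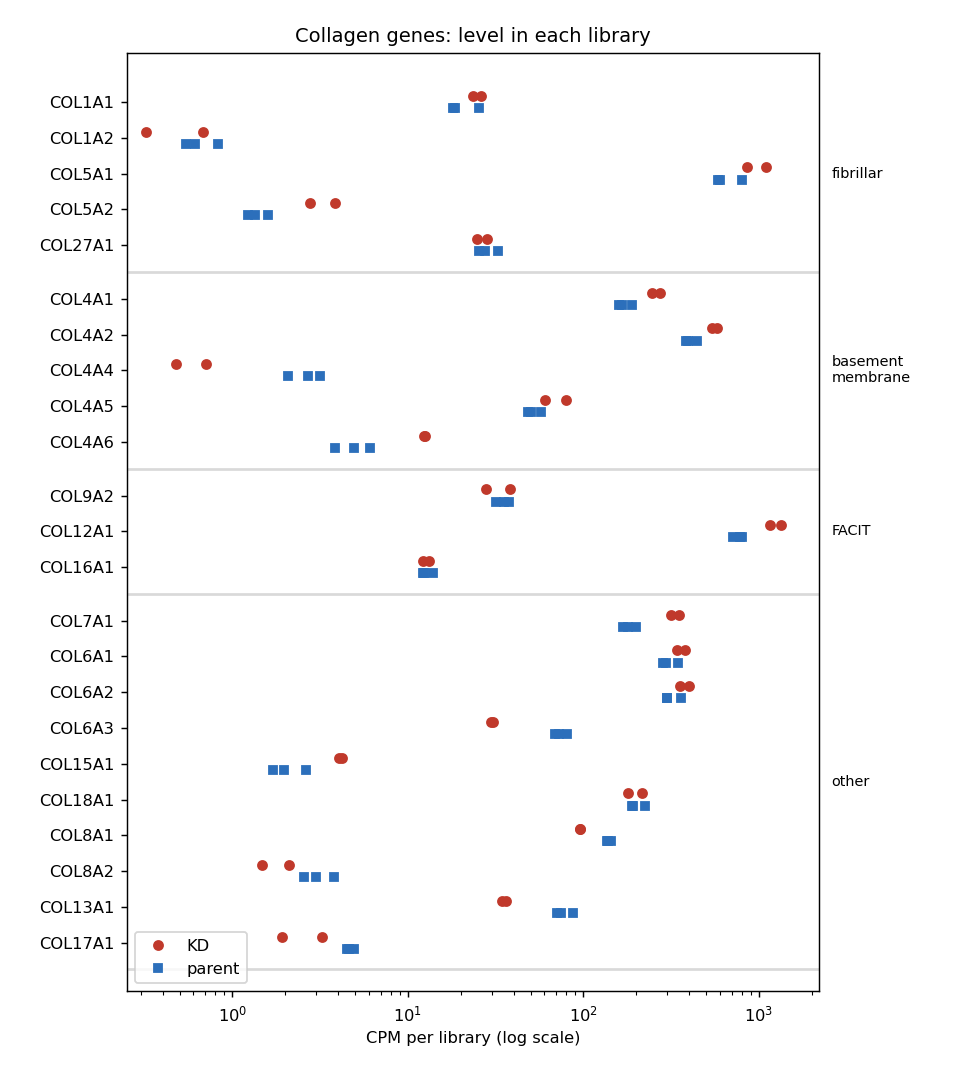
Level of each tested collagen gene in each library, in CPM on a log axis, with the 2 KD libraries as circles above the 3 parent libraries as squares. COL9A3 is left out because it was at 0 in 2 libraries. COL12A1, at 1161 and 1333 CPM in KD, lies to the right of its parent libraries, while both KD libraries of COL6A3 and COL13A1 lie to the left of theirs.

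KD and parent libraries did not overlap for 15 of the 24 tested collagens, 9 with KD above and 6 with KD below. Over all tested genes 51.4% did not overlap (25.3% with KD above and 26.1% with KD below), so separation of the groups alone was common. Libraries of a group also differed for the family as a whole. KD replicate 1 was above KD replicate 2 in 20 of the 24 tested collagens, and parent replicate 1 was the highest parent library in 22 of 24. Collagen genes took 0.503% and 0.436% of all counts in KD replicates 1 and 2, against 0.381%, 0.323% and 0.331% in parent replicates 1, 2 and 3. Without KD replicate 1, and likewise without parent replicate 2, 5 collagens rose instead of 8.

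Summed over the family, collagen transcripts reached 5002 and 4330 CPM in KD, against 3870, 3221 and 3339 CPM in parent. These sums count reads, which follow transcript length as well as number, and they rest on few genes. COL12A1, COL5A1 and COL4A2 together held 60.2% and 59.0% of the collagen sum in KD, against 53.0%, 52.0% and 53.0% in parent. By class, the ratio of the mean KD sum to the mean parent sum was 1.45 for fibrillar, 1.41 for basement membrane, 1.59 for FACIT and 1.10 for the other collagens. For the first 3 of these classes both KD libraries were above all parent libraries, and for the other collagens the groups overlapped. Of single tested genes, 25.3% had both KD libraries above all parent libraries. COL5A1 alone averaged 978 of the 1033 CPM of the fibrillar sum in KD, and COL12A1 1247 of the 1293 CPM of the FACIT sum. These 2 class ratios thus describe mainly those genes, and the median log2 fold change of the tested FACIT genes was -0.047.

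**Figure D2:**
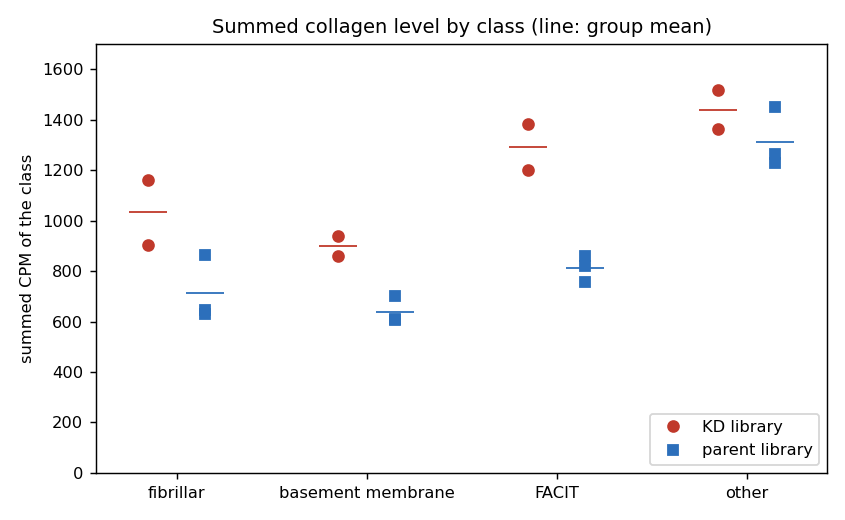
Summed CPM of the collagens of each class in each library, with KD circles left of parent squares and a line at each group mean. The FACIT sum was 1384 and 1202 CPM in KD, against 858, 757 and 819 CPM in parent, and the sums of the other collagens overlapped.

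Of 11 fibrillar collagen genes 5 were tested, 2 rose and none fell, where 9.15% of all tested genes rose and 12.4% fell. Both that rose encode type V chains. COL5A1 (ENSG00000130635) encodes the chain that helps set the width of collagen I fibrils. It had 1102 and 853 CPM in KD replicates 1 and 2, against 802, 582 and 599 CPM in parent replicates 1, 2 and 3. Both KD libraries were above all parent libraries, but KD replicate 2 exceeded parent replicate 1 by little. Mean levels of 978 ± 176 CPM in KD and 661 ± 122 CPM in parent (SD, n = 2 and n = 3) gave a log2 fold change of 0.56 ± 0.161 (SE, edgeR adjusted p = 0.0490). The call was lost without KD replicate 1 (edgeR adjusted p = 0.259, log2 fold change 0.37), without parent replicate 2 (0.141) or without parent replicate 3 (0.109). The partner gene COL5A2 had 3.86 and 2.76 CPM in KD, against 1.60, 1.23 and 1.34 CPM in parent. It rose 2.37-fold (edgeR adjusted p = 0.0134) at a low level. Leaving out KD replicate 1 gave an adjusted p of 0.0990, and leaving out parent replicate 2 gave 0.0519.

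Type I collagen, the main collagen of skin and bone, did not pass the test. COL1A1 had 25.9 and 23.5 CPM in KD, against 25.5, 18.7 and 18.1 CPM in parent (edgeR adjusted p = 0.301), and parent replicate 1 reached the KD level. Without parent replicate 1 COL1A1 passed (adjusted p = 0.0241, log2 fold change 0.42). Its partner COL1A2 had at most 13 counts in a library and COL3A1, the type III gene, at most 9. COL27A1, a cartilage fibrillar collagen, had 28.3 and 24.6 CPM in KD, against 32.8, 25.3 and 27.7 CPM in parent (edgeR adjusted p = 0.568). COL11A2 was at 0 in both KD libraries and had 8, 14 and 7 counts in parent. Against 3 counts over the KD group it was at least 6.27-fold lower in KD, a bound that covers counting error only. COL24A1 had 6 counts in parent replicate 2 alone, and COL2A1, COL5A3 and COL11A1 were at 0 in all 5 libraries.

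Of 5 tested basement membrane collagens 4 passed, the highest share of a class but on few genes, where 21.5% of all tested genes passed. One of the 4, COL4A4, passed the count filter through the parent libraries alone, which fixed its direction. The fifth gene was separated between groups, as were 51.4% of all tested genes. COL4A1 (ENSG00000187498) and COL4A2 (ENSG00000134871) encode the chains found in nearly all basement membranes and share the promoter printed above. COL4A1 had 273 and 246 CPM in KD, against 188, 166 and 159 CPM in parent. It was 1.52-fold higher in KD, with a log2 fold change of 0.60 ± 0.0818 (SE, edgeR adjusted p = 0.00308). COL4A2 had 575 and 540.5 CPM in KD, against 444, 383 and 397 CPM in parent, and was 1.37-fold higher (log2 fold change 0.45 ± 0.0725 SE, edgeR adjusted p = 0.00602). No KD library of either gene reached down to a parent library.

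In the other head-to-head pairs, 1 gene of each passed. COL4A6, whose chain joins the COL4A5 chain in basement membranes of skin and smooth muscle, had 12.5 and 12.4 CPM in KD, against 6.07, 3.83 and 4.92 CPM in parent. It was 2.51-fold higher in KD, the largest rise among tested collagens (edgeR adjusted p = 0.00328). COL4A5 itself had 79.6 and 60.2 CPM in KD, against 57.4, 50.5 and 48.1 CPM in parent, with KD replicate 2 close to parent replicate 1. Its log2 fold change of 0.43 ± 0.132 (SE) did not pass (edgeR adjusted p = 0.0627), but did so without KD replicate 2 (0.0217). The nearest starts of COL4A6 and COL4A5 are 380 bases apart in RefSeq, and those of COL4A4 and COL4A3 419 bases. COL4A4, which with COL4A3 and COL4A5 forms the network of the kidney filter, fell. COL4A4 had 7 and 11 counts in KD, against 42, 46 and 37 counts in parent, and was 4.38-fold lower (edgeR adjusted p = 0.00496). It passed the count filter through the parent libraries alone. COL4A3 had 13 counts in parent replicate 1 and 0 elsewhere, and was not tested.

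**Figure D3:**
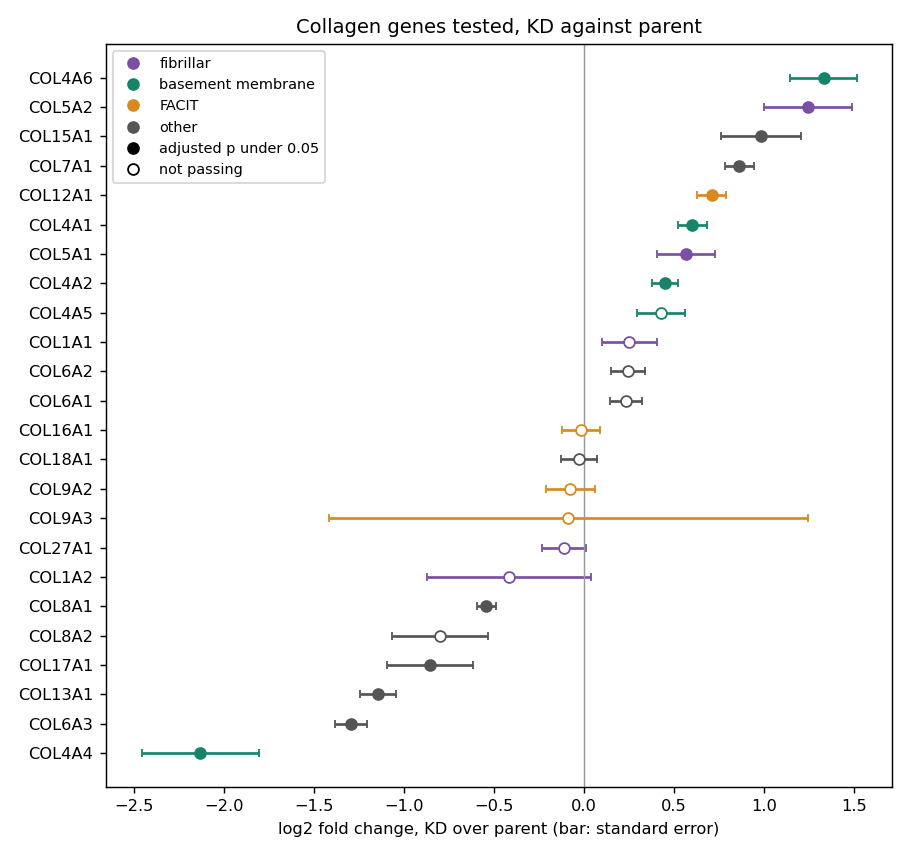
Log2 fold change, KD over parent, of the 24 tested collagens with its standard error, coloured by class and filled where the adjusted p was under 0.05. COL4A6 (1.33) is at the top and COL4A4 (-2.13) at the bottom, and both belong to the basement membrane class.

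In the FACIT class 1 of 4 tested genes changed, near the 21.5% of all tested genes that passed. COL12A1 (ENSG00000111799), whose product coats collagen I fibrils and occurs in tumour stroma, had 1333 and 1161 CPM in KD, against 806, 709 and 775 CPM in parent. The groups were well apart. Mean levels of 1247 ± 122 CPM in KD and 763 ± 49.7 CPM in parent (SD, n = 2 and n = 3) gave a log2 fold change of 0.71 ± 0.0795 (SE, edgeR adjusted p = 0.00141). COL9A2, a chain of the type IX collagen of cartilage fibrils, had 38.0 and 27.9 CPM in KD, against 37.4, 35.3 and 31.6 CPM in parent (edgeR adjusted p = 0.744). COL16A1, which occurs near both fibrils and basement membranes, had 12.1 and 13.2 CPM in KD, against 13.9, 12.4 and 12.1 CPM in parent (adjusted p = 0.930). Parent and KD overlapped for both. COL9A3 had 15 and 0 counts in KD, against 13, 12 and 0 counts in parent, and its estimate is not informative. The other 6 FACIT genes were at 0 in all 5 libraries.

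Type VII collagen rose and type VI was split. COL7A1 (ENSG00000114270) encodes the anchoring fibril that ties an epithelial basement membrane to the tissue below. It had 349 and 316 CPM in KD, against 200.3, 168 and 180.2 CPM in parent. It was 1.82-fold higher in KD, with a log2 fold change of 0.86 ± 0.0821 (SE, edgeR adjusted p = 0.000711). Type VI collagen forms beaded filaments around cells from the products of COL6A1, COL6A2 and COL6A3. COL6A3 (ENSG00000163359) had 30.6 and 29.9 CPM in KD, against 81.1, 68.7 and 73.0 CPM in parent, and was 2.45-fold lower (log2 fold change -1.30 ± 0.0899 SE, edgeR adjusted p = 0.000220).

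The genes for the other type VI chains did not follow COL6A3. COL6A1 had 379 and 343 CPM in KD, against 344, 285 and 294 CPM in parent (log2 fold change 0.23 ± 0.0901 SE, edgeR adjusted p = 0.118). COL6A2, its neighbour on the chromosome, had 402 and 357 CPM in KD, against 359, 301 and 301 CPM in parent (log2 fold change 0.24 ± 0.0933 SE, edgeR adjusted p = 0.112). KD replicate 2 was level with parent replicate 1 for both. Without parent replicate 1 COL6A1 and COL6A2 passed as higher (adjusted p = 0.0213 and 0.0217).

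Ratios of partner genes within a library need no scaling between libraries, and 8 were computed. Counts of COL6A3 per count of COL6A1 were 0.0807 and 0.0871 in KD, against 0.236, 0.241 and 0.248 in parent, a mean log2 difference of -1.53. COL6A2 per COL6A1 was 1.06 and 1.04 in KD, against 1.04, 1.05 and 1.02 in parent, so that this ratio overlapped. COL4A2 per COL4A1 was 2.11 and 2.19 in KD, against 2.36, 2.30 and 2.49 in parent, a log2 difference of -0.15. COL4A6 per COL4A5 was 0.156 and 0.207 in KD, against 0.106, 0.0758 and 0.102 in parent, a log2 difference of 0.94. In all, 6 of the 8 ratios did not overlap between the groups. Levels of 51.4% of all tested genes did not overlap either, and the share for ratios of other genes was not computed. COL6A3 over COL6A1 and COL6A3 over COL6A2 are among the 6, share COL6A3 and are not independent. COL1A2 over COL1A1, also among them, rests on at most 13 COL1A2 counts in a library. Each of the 6 had an exact two-sided permutation p of 0.1 (0.133 adjusted over the 8), the smallest that 2 against 3 libraries allow. No ratio could therefore pass 0.05.

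**Figure D4:**
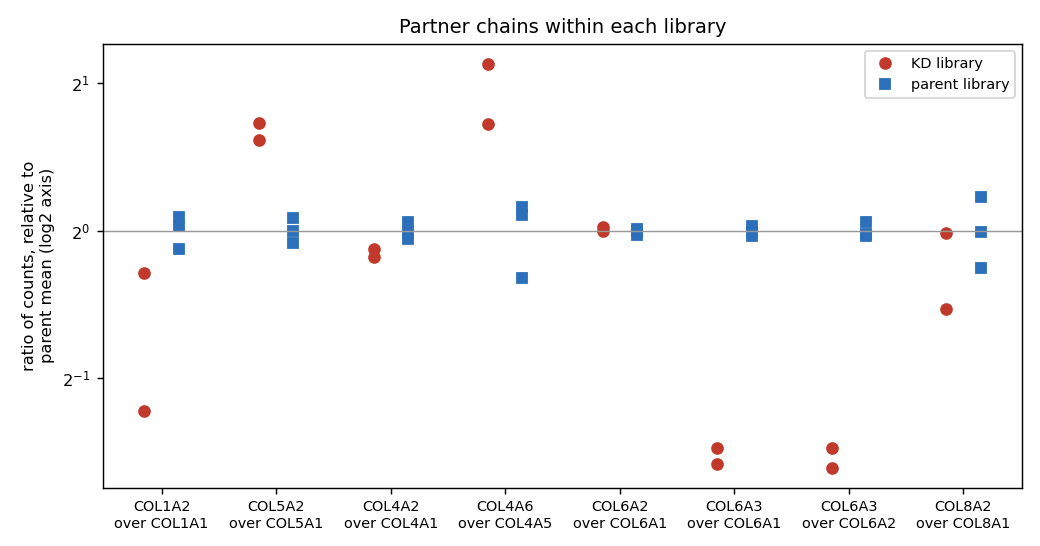
Ratio of counts between partner collagen genes in each library, divided by the parent mean, on a log2 axis, with KD circles left of parent squares. COL6A3 over COL6A1 averaged 0.0839 in KD and 0.242 in parent, while COL6A2 over COL6A1 averaged 1.05 in KD and 1.04 in parent.

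Both tested transmembrane collagens fell, where 12.4% of all tested genes fell, but the call of COL17A1 was not kept under every alternative. COL13A1 (ENSG00000197467), a transmembrane collagen of cell adhesion sites, had 36.0 and 34.2 CPM in KD, against 86.9, 71.2 and 74.7 CPM in parent. It was 2.21-fold lower, with a log2 fold change of -1.14 ± 0.102 (SE, edgeR adjusted p = 0.000552). COL17A1, the transmembrane collagen of hemidesmosomes, had 3.25 and 1.92 CPM in KD, against 4.47, 4.92 and 4.64 CPM in parent, and was 1.81-fold lower (edgeR adjusted p = 0.0467). That call was lost without KD replicate 2 (adjusted p = 0.173, log2 fold change -0.52) and without parent replicate 1 (0.0667), 2 (0.127) or 3 (0.0925). COL23A1 and COL25A1 were at 0 in all 5 libraries.

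Type VIII collagen, which forms hexagonal networks in vessel walls and in the cornea, passed for 1 of its 2 genes. COL8A1 (ENSG00000144810) had 95.1 and 95.6 CPM in KD, against 144, 136 and 137 CPM in parent. It was 1.46-fold lower, with a log2 fold change of -0.54 ± 0.0515 (SE, edgeR adjusted p = 0.000701). COL8A2 had 2.10 and 1.47 CPM in KD, against 3.77, 3.00 and 2.57 CPM in parent, and did not pass (adjusted p = 0.0789) although the groups did not overlap.

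The multiplexins of the basement membrane zone differed from each other in call. COL18A1, whose product releases the fragment endostatin, had 216 and 180.3 CPM in KD, against 223, 189 and 192.5 CPM in parent (log2 fold change -0.03 ± 0.100 SE, edgeR adjusted p = 0.884), and the groups overlapped. COL15A1 had 4.06 and 4.23 CPM in KD, against 2.62, 1.71 and 1.96 CPM in parent, and was 1.98-fold higher (edgeR adjusted p = 0.0223). Its call was lost without KD replicate 1 (0.0898), KD replicate 2 (0.102), parent replicate 2 (0.0694) or parent replicate 3 (0.0620). The difference between these genes was not tested. Of the rest, COL10A1 and COL28A1 had at most 2 counts in a library, and COL26A1, COL6A5 and COL6A6 were at 0 in all 5 libraries.

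The authors' deposited table gives the same comparison by another fit. The authors' deposited table gave 27 collagens an adjusted p, of which 6 were higher and 5 lower, where 13.6% of all genes with an adjusted p passed 0.05. Of the 13 collagens called here, 9 were called in the same direction in the authors' deposited table, 5 higher and 4 lower. COL5A1, COL5A2, COL15A1 and COL17A1 were not called in the authors' deposited table, with adjusted p of 0.118, 0.0706, 0.117 and 0.144. COL4A5 (0.0398, higher) and COL11A2 (0.0198, lower) passed in the authors' deposited table alone.

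Strand use in counting is not given in the sources used here, so overlapping antisense reads could add to a collagen count. Rows for antisense genes of COL4A2, COL5A1 and COL18A1 held at most 2 counts in a library, and the pseudogene rows of COL6A4 and COL11A2 were at 0. How reads were divided between sense and antisense rows was not tested.

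A promoter was present in the RefSeq table for 32 of the 44 collagens and for 18 of the 24 tested. The G-quadruplex motif was found in the 250 bases before a start in 13 of those 18 (72.2%), against 26.3% of all 27305 genes in the table and 39.7% of 9981 tested genes matched by symbol. By call, 5 of 7 genes that rose, 3 of 4 that fell and 5 of 7 that did not pass held it, and these shares were not tested against each other. Among all matched tested genes 46.8% of those higher, 46.6% of those lower and 37.4% of those not called held it. GGGCGG was found before a start of all 7 collagens that rose and were in the table, which lacks COL5A2. For COL4A6 it stood before 1 start and not before the start nearest to COL4A5. It was found before none of 4 that fell (COL4A4, COL6A3, COL13A1 and COL17A1), and COL8A1, which also fell, was not in the table. Of 7 collagens that did not pass, 6 held it. Among all matched tested genes GGGCGG stood before 78.0% of those higher, 74.7% of those lower and 73.9% of those not called. CCAAT was found before COL4A1, COL4A2, COL4A5, COL4A6 and COL17A1, 27.8% of the 18 and 41.5% of all matched tested genes. TGANTCA, the letters of the AP-1 site, was before none of the 18 and before 6.29% of matched tested genes, and TATAAA before 5 (27.8%) and 7.84%. These matches describe letters in a short window, in which type IV neighbours share bases, and do not show binding.

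Genes that serve collagen were read from 7 lists, which were chosen with earlier results of these data known. The part of that choice in the shares that passed was not tested. Collagen is modified in the endoplasmic reticulum, cut and cross-linked outside the cell, bound by receptors and cleaved by proteases. Over the lists, 42 of 104 distinct tested genes passed, 15 higher and 27 lower, where 21.5% of all tested genes passed (9.15% higher and 12.4% lower). The 27 include FKBP10, ADAMTS14, MMP1, MMP9 and MMP16. These passed the count filter through the parent libraries alone, which fixed their direction. Without KD replicate 1, 32 passed, 8 of them higher.

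The machinery inside the cell passed at about the rate of all genes. Of 25 tested genes for modification, folding and secretion, 2 rose and 3 fell, where 21.5% of all genes passed, with a median log2 fold change of -0.04. SERPINH1, the collagen chaperone HSP47, averaged 556 ± 4.21 CPM in KD and 465 ± 10.3 CPM in parent and was 1.20-fold higher (edgeR adjusted p = 0.00816). CTAGE5, which helps load procollagen into transport vesicles, was 1.26-fold higher (adjusted p = 0.0202). The prolyl isomerases FKBP10 and FKBP14 were 5.35-fold and 1.29-fold lower, and FKBP10, at 2.69 CPM in parent, passed the count filter through the parent libraries alone. Without KD replicate 1 the calls of SERPINH1 (0.0566), CTAGE5 and FKBP14 were lost, and no gene of this list was higher. FKBP14 was also lost without KD replicate 2 (0.107) and CTAGE5 without parent replicate 2 (0.0550). Scaled by library totals alone, 4 genes of this list rose and 2 fell.

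Of 18 tested genes for propeptide cleavage, fibril assembly and cross-linking, 5 fell and 3 rose, with a median of -0.11, where 12.4% of all tested genes fell and 9.15% rose. Without KD replicate 1, and likewise without parent replicate 2, 5 of them passed and 3 fell. With no filter on low counts 3 fell. ADAMTS14, named although outside the rule, is among those that fell in the main fit. It had 0 and 8 counts in KD, against 65, 39 and 25 counts in parent. It passed the count filter through the parent libraries alone, which fixed its direction. FN1, the fibronectin scaffold on which collagen is laid down, averaged 1497 ± 200.5 CPM in KD and 668 ± 126 CPM in parent and was 2.24-fold higher (edgeR adjusted p = 0.00254). SPARC, a collagen-binding matricellular protein, was 7.15-fold higher but low, at 4.83 CPM in KD and 0.675 CPM in parent. The matrix glycoproteins TNC and THBS2 were 1.96-fold and 2.71-fold lower. Of the 10 small leucine-rich proteoglycans, which coat fibrils, none had enough counts to be tested. LUM had 5 and 0 counts in KD, against 3, 6 and 7 counts in parent.

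Of 11 tested receptors for collagen, 6 fell and 0 rose, with a median log2 fold change of -0.34, where 12.4% of all tested genes fell and 9.15% rose. With library totals alone, with the DESeq2 Wald test or without parent replicate 1, 1 receptor rose. ITGA1 and ITGA2, the integrin subunits that pair with ITGB1 to bind type IV and type I collagen, were 3.45-fold and 2.24-fold lower. ITGA1 averaged 18.03 ± 4.57 CPM in KD, against 62.2 ± 8.65 CPM in parent (edgeR adjusted p = 0.000882). ITGA2 averaged 109.5 ± 17.01 CPM in KD, against 245.5 ± 20.1 CPM in parent (adjusted p = 0.000662). ITGB1, named although outside the rule for named genes, was 1.22-fold lower. ANTXR2, a receptor for type IV and type VI collagen, was 1.86-fold lower (adjusted p = 0.000224), and GPR56, an adhesion receptor for type III collagen, 1.63-fold lower (0.00633). DDR1, a collagen-activated tyrosine kinase also outside the rule, averaged 77.2 CPM in KD, against 59.7 CPM in parent, and did not pass (0.0602).

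Of 10 tested proteases that cut collagen, 5 fell and 1 rose, with a median of -0.41, where 12.4% of all tested genes fell and 9.15% rose. Of those that fell, MMP1, MMP9 and MMP16 passed the count filter through the parent libraries alone, which fixed their direction, and with a minimum count of 50, 2 proteases fell. MMP9 is named here although outside the rule. MMP14, the membrane-bound collagenase, averaged 452 ± 37.5 CPM in KD and 705 ± 52.9 CPM in parent and was 1.56-fold lower (edgeR adjusted p = 0.00231). The lysosomal protease CTSS was 1.70-fold lower (adjusted p = 0.000935). MMP1 and MMP16 were at 0 in both KD libraries and at 1.19 and 1.36 CPM in parent, so at least 12.0-fold and 13.8-fold lower against 3 counts over the KD group. With MMP1 and MMP16 at their bound the median could not change, because both stay below the middle of the list. The median also includes MMP9, so it rests in part on genes whose direction the filter fixed. MMP15, named as the single member that rose (adjusted p = 0.0341), lost its call when KD replicate 1 was left out, and likewise for parent replicate 2 or 3 and with no filter on low counts.

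Of 18 tested basement membrane partners, 5 rose and 3 fell, with a median of 0.12, where 9.15% of all tested genes rose and 12.4% fell. LAMA5, a laminin chain of mature basement membranes, averaged 715 ± 69.4 CPM in KD and 401 ± 66.0 CPM in parent and was 1.78-fold higher (edgeR adjusted p = 0.00523). The laminin genes LAMB1 and LAMC1, named although outside the rule, were each 1.25-fold higher. Also outside the rule, LAMA4 was 2.04-fold higher and HSPG2 1.36-fold lower (edgeR adjusted p = 0.0068 and 0.0471). FBLN1, fibulin 1, was 2.05-fold higher (adjusted p = 0.000345). LAMB3, a chain of the epithelial laminin 332, was 2.06-fold lower. PXDN, the peroxidase that cross-links type IV collagen, averaged 256 ± 18.5 CPM in KD and 514 ± 39.2 CPM in parent and was 2.00-fold lower (adjusted p = 0.000350). Without KD replicate 1, 3 members rose and 2 fell, and the calls of LAMB1 (0.0637) and LAMC1 were lost. LAMC1 was also lost without KD replicate 2.

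Of 22 tested regulators of collagen transcription, 4 rose and 5 fell, with a median of 0.00 (-0.003), where 9.15% of all tested genes rose and 12.4% fell. TGFB2, a ligand that raises collagen transcription, was 1.80-fold higher (edgeR adjusted p = 9.5e-05), as was the transcription factor CEBPB by 1.84-fold (adjusted p = 0.00100). SMAD2, a transducer of that ligand, was 1.64-fold lower (0.000959), and CTGF, a matricellular target of the same pathway, 4.73-fold lower (1.2e-05).

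**Figure D5:**
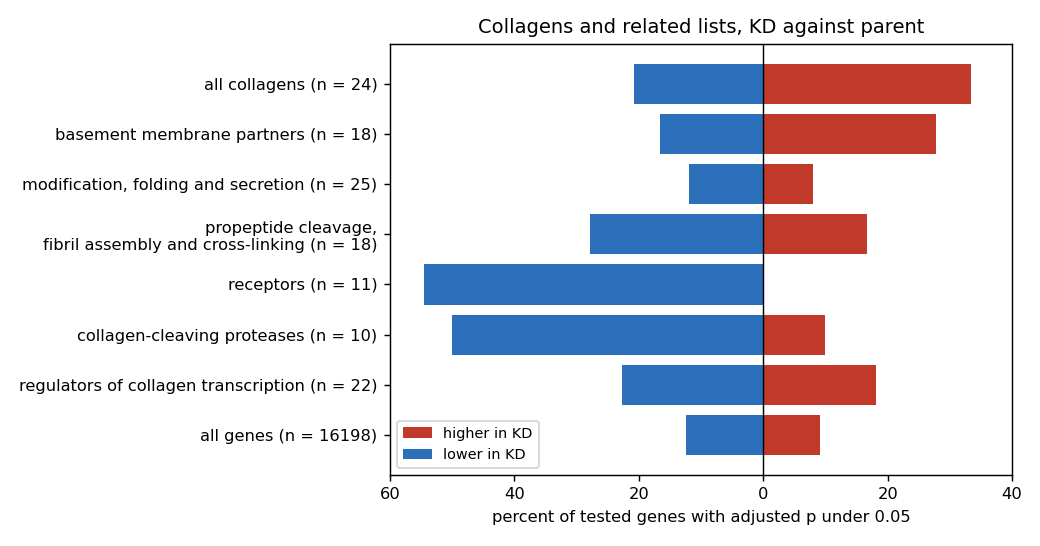
Percent of tested genes with an adjusted p under 0.05, higher in KD to the right of 0 and lower in KD to the left, for the collagens, 6 related lists and all 16198 tested genes. Receptors have bars on the lower side alone (6 of 11), while modification genes (2 higher and 3 lower of 25) are near all genes (9.15% higher and 12.4% lower). Some lower bars, such as that of the proteases, include genes whose direction the count filter fixed.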

How the data were processed

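RNA from MDA-MB-231 cells was sequenced in 2 KD and 3 parent libraries, and 2 chromatin immunoprecipitation samples of the series were not analysed here. Gene values are expected counts, which the authors deposited as whole numbers. STAR, DESeq2 and hg19 appear in the submitters' processing notes. The counter, annotation and strand setting: not given in the sources used here. Per the file headers, the authors' comparison table holds, for each gene, the average signal of normalised counts, the log2 fold change and its error, the Wald score, the p-value and the adjusted p-value. The transcript table was not used.

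Genes passed filterByExpr (minimum count 10, minimum total 15). KD was compared with parent by the edgeR 4.0.16 quasi-likelihood test in R 4.3.3 with TMM factors and group as the only term, leaving 3 residual degrees of freedom, and p-values were adjusted by Benjamini-Hochberg over 16198 genes with 0.05 as the limit. Standard errors were taken as the absolute log2 value divided by the root of F. No table of transcript lengths was used, so levels are not compared between genes. Per-library values are given for members that passed or reached 5 CPM in 1 group, and for each list up to 4 passing genes with the smallest adjusted p. Members, classes and lists were chosen with earlier results of these data known. The code was tested on simulated data. Alternatives were DESeq2 1.42.0, its size factors, library totals, other count filters, each library left out, and a replicate block. Floors of 3 counts cover counting error only. Standard errors come from the quasi-likelihood fit, which also estimates the spread between libraries, and SDs are between libraries of a group.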

Additional observations from a re-analysis of the deposited data

How the results depend on the processing

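Of the 13 called collagens, 9 (5 higher and 4 lower) kept call and direction under every alternative that gave a value. They are COL4A1, COL4A2, COL4A6, COL7A1, COL12A1, COL4A4, COL6A3, COL8A1 and COL13A1. COL4A4 gave a value under 10 of the 11 alternatives. It passed the count filter of the main fit through the parent libraries alone, which fixed its direction, so the kept direction is no support for it. COL5A1, COL5A2, COL15A1 and COL17A1 each lost the call under at least 1 alternative, and no called collagen reversed. COL5A1 missed 0.05 with the size factors of DESeq2 (edgeR adjusted p = 0.0503), with no filter on low counts (0.0844) and with the DESeq2 Wald test (0.0899). COL17A1 missed it with no filter (0.0754) and with DESeq2 (0.0732). COL4A5 passed with DESeq2 (0.0253). Leaving out 1 library gave 9 to 15 called collagens, 5 to 11 higher and 4 to 5 lower. For all genes it gave 1823 to 3383 calls, 553 to 1413 higher and 1270 to 1970 lower. For the related lists it gave 32 to 43 calls, 8 to 18 higher and 23 to 25 lower. The cause was not tested. With a minimum count of 50 the proteases had 2 lower and 1 higher. Same-numbered libraries were not treated as pairs in the main fit. The correlation of deviations from the group mean was 0.087 for number 1 and -0.018 for number 2. With 2 KD libraries these deviations mirror each other, so the correlations cannot decide whether the libraries were paired. The replicate block gave 3940 calls over all genes and 15 collagens, 10 higher and 5 lower. With the block COL4A5, COL6A1, COL6A2 and COL8A2 passed, and COL15A1 (0.0554) and COL17A1 (0.0719) did not. It called 10 receptors, 2 of them higher. With no filter on low counts 30 collagens were tested and 12 called, so the count filter set which low genes were tested.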
